A study of Rattus norvegicus with 3 samples.

Results

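The genes described here are the rat MHC genes, whose symbols begin with RT1-, together with 9 genes that serve antigen presentation: B2m, Cd74, Ciita, Tap1, Tap2, Tapbp, Nlrc5, Psmb8 and Psmb9. All rows of the mRNA gene table with these symbols were taken, which gave 37 RT1 rows and 46 members among 22608 rows. Of the RT1 rows, 27 were class I and 10 class II. RNA came from the sciatic nerve of male SD (Sprague-Dawley) rats, sampled 30 days after surgery, and each group was sequenced as 1 library. The sham library came from nerve that was exposed and not injured. The model library came from nerve squeezed with vascular forceps; its treatment label reads control, and the study title, its design text and its title letter place it as the injured nerve without the drug. The AKBA library came from the injured nerve of rats given AKBA, which is short for acetyl-11-keto-beta-boswellic acid and comes from Boswellia resin, at a dose and for a time not given in the sources used here. How many animals stand behind a library is not given either.

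Class I molecules carry peptides made in the cytosol to the cell surface for CD8 T cells and natural killer cells to inspect. The proteasome, with Psmb8 and Psmb9 as its interferon-inducible subunits, cuts the peptides, the Tap1-Tap2 pump moves them into the endoplasmic reticulum, and tapasin (Tapbp) loads them onto a heavy chain held by the light chain B2m. Class II molecules are dimers of an alpha and a beta chain that show peptides from the endosome to CD4 T cells; Cd74, the invariant chain, guards their groove until the RT1-DM pair exchanges it for peptide. Nlrc5 and Ciita are the transactivators of class I and class II genes. In peripheral nerve, resident macrophages are the usual class II cells, and Schwann cells can be induced to make class I and class II in inflammation.

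Levels are CPM, a gene's count scaled to the gene table's total in that library, given in the order sham, model and AKBA. Totals were 74184217, 89505656 and 90071899 counts, and the limit behind a count of 0 is 3 counts, or 0.0333 to 0.0404 CPM. A ratio is given as a quotient of CPM with its exact 95% counting interval, which covers counting error only, as PCR copies are not independent molecules. With 1 library per group there is no replicate, no test and no spread between animals behind any value. A gene was kept where its mean over the libraries reached 1 CPM, and called at least 2-fold apart when log2 of (CPM + 1) in one library over the other reached 1. The median of that log2 ratio over the 14427 kept genes was 0.18 (model to sham), -0.044 (AKBA to model) and 0.16 (AKBA to sham), so a gene slightly above 0 against sham is where the middle gene lies. TMM scaling moved these medians by -0.20, 0.049 and -0.15. Ribosomal RNA rows took 11.5%, 4.20% and 7.59% of the counts, and their part in the ratios is shown by the totals without them in the closing section. Schwann cell markers were present in every library, with a summed level over 7 genes of 17814, 41123 and 36149 CPM.

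RT1 genes are highly polymorphic, SD rats are outbred, and several RT1 genes are near copies of each other. How reads that match several of them were counted is not stated, so the value of a single class I row is uncertain. Sums over a class do not depend on how reads were split within it, but they do depend on how many reads were counted at all. Whether the 3 libraries carry the same RT1 alleles was not tested. For a single RT1 row, and for a sum of RT1 rows, a difference in alleles and a difference in RNA level cannot be told apart here. In bulk tissue, too, fewer cells of a type and less RNA per cell cannot be told apart.

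Promoter sequence shows what the 2 classes share and where they differ. RefSeq promoter windows of 300 bases, from 250 before to 50 after the annotated start in build GRCr8, were found for 39 of the 46 members. Letters searched on both strands were the Y box (CTGATTGG, the site of NF-Y), the X box core (AGCAAC, within the site of the RFX complex), the core of enhancer A (GGGGATTCC, an NF-kB site of class I genes), the interferon response sequence of class I genes (GTTTCACTT) and the interferon-stimulated response element, ISRE (GAAANNGAA). The Y box letters stood in 7 of 9 class II and 8 of 23 class I windows, against 3.50% of all 33469 windows. X box letters stood in 6 of 9 class II windows, 4 of 23 class I windows and 14.7% of all. Enhancer A letters stood in 5 of 23 class I windows (RT1-A1, RT1-A2, RT1-CE3, RT1-CE4 and RT1-CE10), in 0 of 9 class II windows and in 94 of all windows (0.281%). The class I interferon response letters stood in 8 of 23 class I windows, RT1-CE5 among them, and in 0.385% of all. ISRE letters stood in B2m, Tap1, Tap2, Tapbp and Psmb8, 5 of the 7 windows of members outside RT1, in 3 of 23 class I windows (RT1-S2, RT1-N3 and RT1-S3), in 0 of 9 class II windows and in 9.71% of all. Matches overlapped in 2 windows, that of RT1-N3 (ISRE with the class I interferon sequence) and that of Tapbp (ISRE matches with each other).

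Stretches of 4 class I promoters are shown because RT1-A1 and RT1-A2, which are alike here over 92.8% of 250 aligned bases, moved apart between libraries, and because RT1-CE5 and RT1-CE10 were among the genes that differed most. Capitals mark the enhancer A, interferon and Y box matches, the last read from the other strand as CCAATCAG.
RT1-A1 (GRCr8 chr20:4907077-4907215, plus strand): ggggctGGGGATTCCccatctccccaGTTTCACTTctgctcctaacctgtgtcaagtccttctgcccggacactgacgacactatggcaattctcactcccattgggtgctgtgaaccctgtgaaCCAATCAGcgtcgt
RT1-A2 (GRCr8 chr20:4872691-4872828, plus strand): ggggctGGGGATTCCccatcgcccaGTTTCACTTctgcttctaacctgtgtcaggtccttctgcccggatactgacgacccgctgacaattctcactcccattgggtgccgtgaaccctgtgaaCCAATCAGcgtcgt
RT1-CE5 (GRCr8 chr20:3484125-3484263, minus strand): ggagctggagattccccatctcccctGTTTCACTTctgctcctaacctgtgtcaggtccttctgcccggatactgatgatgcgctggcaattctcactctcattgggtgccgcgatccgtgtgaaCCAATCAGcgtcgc
RT1-CE10 (GRCr8 chr20:3385065-3385179, minus strand): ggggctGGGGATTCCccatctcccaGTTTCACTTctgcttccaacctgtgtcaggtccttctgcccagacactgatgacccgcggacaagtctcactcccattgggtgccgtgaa

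Stretches of 4 class II promoters are shown because the RT1-B and RT1-D genes, each an alpha and a beta chain, took different orders over the libraries. Capitals mark the X box and Y box letters, and in RT1-Ba and RT1-Bb the Y box alone matched. Only exact letters were searched, so a near match such as ggcaac in RT1-Ba is not marked. The lack of a match therefore does not show that an X box is absent. Whether these letters bear on the levels was not tested.
RT1-Da (GRCr8 chr20:4515326-4515376, plus strand): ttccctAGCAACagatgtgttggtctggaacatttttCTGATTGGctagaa
RT1-Db1 (GRCr8 chr20:4560232-4560281, minus strand): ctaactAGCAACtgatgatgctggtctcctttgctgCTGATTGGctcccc
RT1-Ba (GRCr8 chr20:4576965-4577024, plus strand): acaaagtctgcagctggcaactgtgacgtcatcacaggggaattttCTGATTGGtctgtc
RT1-Bb (GRCr8 chr20:4604169-4604228, minus strand): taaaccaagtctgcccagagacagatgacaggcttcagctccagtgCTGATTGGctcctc

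The ISRE matches of Tap1 and B2m, in capitals, are shown because these 2 class I partners lay in opposite orders over the libraries.
Tap1 (GRCr8 chr20:4668649-4668669, minus strand): gctgctTTCGGTTTCttcttc
B2m (GRCr8 chr3:129549174-129549194, plus strand): gaacatGAAACTGAAaatggg

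The summed level of class I RT1 genes was higher in both injured nerves than in sham. The summed level of the 27 class I rows was 233.9, 372.0 and 377.0 CPM. Both injured libraries lay above sham, and they lay close to each other. The model to sham ratio of the sum was 1.59 (counting interval 1.56 to 1.62), that of AKBA to sham 1.61 (1.58 to 1.64) and that of AKBA to model 1.01 (0.998 to 1.03). Of the 27 rows, 17 were kept. Against sham, 14 of these 17 were above 0 in model, with a median log2 ratio of 0.45, and 13 were above 0 in AKBA, with a median of 0.67; over all kept genes the shares above 0 were 71.0% and 65.7%. With TMM scaling 12 and 13 of the 17 were above 0, where the median log2 ratios of all kept genes were -0.017 and 0.0092. At least 2-fold higher than sham were 2 of the 17 in model and 4 in AKBA, against 4.52% and 5.83% of all kept genes.

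**Figure D1:**
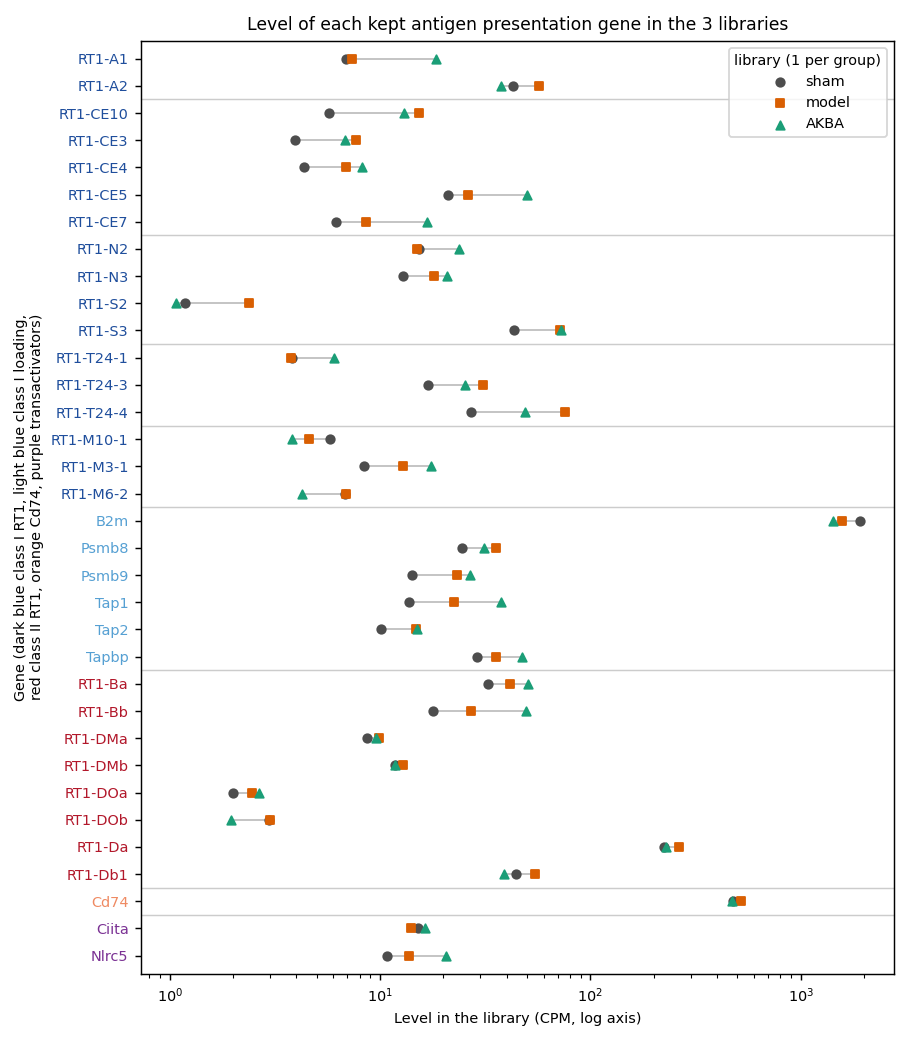
Level of each of the 34 kept genes (CPM, log axis) in the sham (circles), model (squares) and AKBA (triangles) libraries, 1 point per library, with a line over the range. Sham is the lowest point in 23 of the 34 genes, and RT1-T24-4 shows model furthest right, at 75.7 CPM against 27.0 in sham.

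RT1-A1 and RT1-A2 are the classical class I genes, the main peptide presenters to CD8 T cells. RT1-A2 stood at 42.8, 57.1 and 37.7 CPM. It was highest in model and lowest in AKBA, with an AKBA to model ratio of 0.661 (0.633 to 0.691). RT1-A1 stood at 6.88, 7.38 and 18.5 CPM. Sham and model were alike within counting error, with a ratio of 1.07 (0.956 to 1.21), and AKBA was 2.51 times model (2.29 to 2.75). RT1-A1 therefore took 13.8%, 11.5% and 32.9% of the counts of the 2 genes, while their sum moved less, at 49.7, 64.5 and 56.3 CPM.

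RT1-CE genes lie in the class I region at the other side of the class II genes and include nonclassical members. All 5 kept rows were lower in sham than in either injured library, and sham was lowest in 58.1% of all kept genes. The 6 RT1-CE rows summed to 41.4, 65.1 and 94.7 CPM. The sum of AKBA was 2.29 times that of sham (2.19 to 2.38). Within the group the injured libraries took different orders. RT1-CE5 stood at 21.0, 26.2 and 49.9 CPM, with an AKBA to model ratio of 1.91 (1.82 to 2.01). RT1-CE7 stood at 6.17, 8.56 and 16.7 CPM, with an AKBA to model ratio of 1.96 (1.79 to 2.14). RefSeq lists the name RT1-CE7 also as a synonym of RT1-CE5 and places RT1-CE7 within the span of RT1-CE5, so the split of reads between these 2 rows is uncertain. RT1-CE10 was highest in model instead, at 5.69, 15.3 and 13.0 CPM, a model to sham ratio of 2.69 (2.41 to 3.01). RT1-CE3 (3.92, 7.72 and 6.81 CPM) had the same order, and RT1-CE4 (4.35, 6.90 and 8.24 CPM) the order of RT1-CE5. RT1-CE2 was below the filter, with 19, 38 and 0 counts.

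Nonclassical genes of the RT1-T24, RT1-S and RT1-N series also lay above sham, with exceptions. RT1-T24-4 had the largest class I difference between model and sham, at 27.0, 75.7 and 49.0 CPM, a ratio of 2.81 (2.67 to 2.95). RT1-T24-3 stood at 16.9, 30.8 and 25.5 CPM in the same order. The third row, RT1-T24-1, was level in sham and model and higher in AKBA, at 3.80, 3.78 and 6.04 CPM. As a group the T24 rows took 20.4%, 29.6% and 21.3% of the class I counts, so model differed from both other libraries in this share. RT1-S3, listed in RefSeq with the synonym H2-T23, the mouse Qa-1 gene whose product is read by natural killer cell receptors, stood at 43.5, 71.5 and 72.5 CPM. Its 2 injured libraries did not differ beyond counting error, with a ratio of 1.01 (0.980 to 1.05). RT1-N3 stood at 12.91, 18 and 20.79 CPM. RT1-N2 was level in sham and model and higher in AKBA, at 15.4, 15.0 and 23.7 CPM. RT1-S2, near the filter, had 88, 214 and 96 counts and was highest in model.

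RT1-M genes went both ways. RT1-M3-1, whose mouse counterpart H2-M3 presents formylated peptides of bacteria and mitochondria, stood at 8.43, 12.8 and 17.4 CPM. It was ordered sham, model, AKBA from low to high, and AKBA was 2.06 times sham (1.88 to 2.27), just under the 2-fold call on the log2 (CPM + 1) scale (0.96). RT1-M10-1 stood at 5.77, 4.58 and 3.80 CPM, and RT1-M6-2 at 6.81, 6.92 and 4.25 CPM, both lowest in AKBA. Sums of transcripts do not keep that order for RT1-M6-2, as they place 3, 4 and 5 of its 505, 619 and 383 counts. RefSeq types RT1-M10-1 as a noncoding RNA. The other 7 RT1-M rows were below the filter. Among them RT1-M2 had 0, 0 and 104 counts, so AKBA was at least 34.5-fold higher than model, taking 3 counts in that library as the floor, and RT1-M4 and RT1-M1-5 had 0 counts in every library. Such zeros are not taken as absence of the RNA, since 21 genes of the table were at 0 in 1 library or more and at 10 CPM or more in another. In all, 12 members were below the filter: 10 class I rows and, in class II, RT1-Ha (0, 0 and 20 counts) and RT1-Db2 (7, 0 and 2 counts).

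Genes that load class I were higher in the injured nerves, except for the light chain. Tap1, a chain of the peptide pump, stood at 13.8, 22.6 and 37.7 CPM. Each library lay above the one before, with ratios of 1.63 (1.52 to 1.76) for model to sham and 1.67 (1.58 to 1.77) for AKBA to model. Tap2, the other chain, stood at 10.1, 14.9 and 15.0 CPM, so its injured libraries did not differ beyond counting error (ratio 1.004, interval 0.9302 to 1.084). Tap1 took 57.7%, 60.2% and 71.6% of the counts of the pair. Psmb9 stood at 14.1, 23.2 and 26.7 CPM. Psmb8 stood at 24.4, 35.6 and 31.3 CPM and was highest in model. Tapbp was ordered like Tap1, at 29.0, 35.6 and 47.0 CPM. B2m went the other way, at 1918, 1565 and 1430 CPM. The light chain was highest in sham and lowest in AKBA, with a model to sham ratio of 0.816 (0.810 to 0.822), while the class I heavy chain sum was higher in model by 1.59 times. Nlrc5, the class I transactivator, stood at 10.7, 13.7 and 20.6 CPM, with AKBA 1.51 times model (1.40 to 1.62) and 1.92 times sham (1.77 to 2.09).

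**Figure D2:**
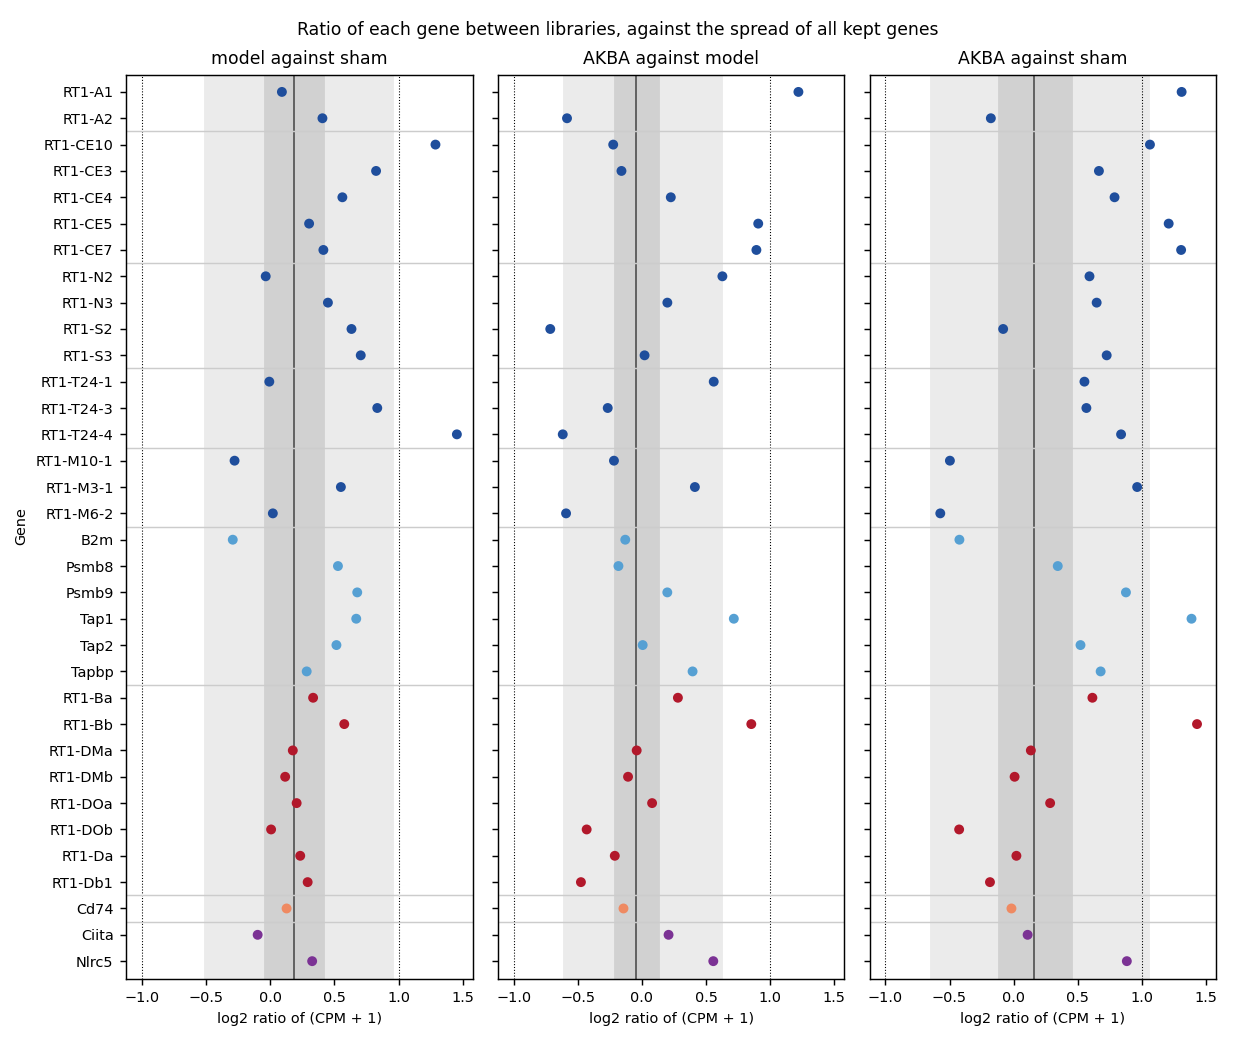
The log2 ratio of (CPM + 1) for each of the 34 kept genes in the 3 comparisons, coloured as in the plot of levels (dark blue class I RT1, light blue class I loading, red class II RT1, orange Cd74, purple transactivators). Dark and light grey bands hold the middle 50% and 90% of all 14427 kept genes, the grey line is their median, and dotted lines mark 2-fold; RT1-A1 stands at 1.22 and RT1-A2 at -0.58 for AKBA against model.

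Class II RT1 genes differed less from sham than class I genes did. Their 10 rows summed to 344.6, 415.1 and 393.1 CPM. Both injured libraries lay above sham, with ratios of 1.20 (1.19 to 1.22) for model and 1.14 (1.12 to 1.16) for AKBA. The median log2 ratio of the 8 kept rows was 0.22 for model against sham and 0.078 for AKBA against sham, close to the 0.18 and 0.16 of all kept genes. With TMM scaling the log2 ratio of the class II sum was 0.052 and 0.025. That sum therefore did not stand off from the bulk of genes, whereas the class I sum kept 0.45 and 0.52. RT1-Da held 224, 264 and 228 CPM of the class II sum, and single rows differed from it. For AKBA against sham with TMM scaling, 3 of the 8 kept class II rows were above 0, with RT1-Bb at 1.27. The difference between the classes has no test.

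Within class II, the 2 presenting pairs took different orders. RT1-Da and RT1-Db1 encode the alpha and beta chains of RT1-D, the counterpart of mouse I-E. RT1-Da stood at 224, 264 and 228 CPM and RT1-Db1 at 44.3, 54.4 and 38.9 CPM. Both were highest in model, and RT1-Da in AKBA did not differ from sham beyond counting error (ratio 1.01, interval 0.995 to 1.04). RT1-Ba and RT1-Bb encode the chains of RT1-B, the counterpart of mouse I-A. RT1-Ba stood at 32.7, 41.4 and 50.5 CPM. RT1-Bb stood at 17.8, 27.0 and 49.5 CPM. Both were ordered sham, model, AKBA from low to high, and RT1-Bb was 1.84 times higher in AKBA than in model (1.75 to 1.93) and 2.79 times higher than in sham (2.62 to 2.97). The RT1-B pair took 15.8%, 17.7% and 27.3% of the counts of both pairs, and RT1-Bb took 35.2%, 39.4% and 49.5% of the counts of its own pair. The share of RT1-Db1 in the RT1-D pair moved less, at 16.5%, 17.1% and 14.6%.

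None of the genes that edit or escort class II was 2-fold apart. Of all kept genes, 5.83% (model to sham), 4.05% (AKBA to model) and 7.91% (AKBA to sham) were, in either direction. Having none in a list this short therefore lies near the background. RT1-DMa, a chain of the peptide exchanger, stood at 8.64, 9.89 and 9.58 CPM and its partner RT1-DMb at 11.8, 12.8 and 11.8 CPM. RT1-DOa and RT1-DOb encode the inhibitor of that exchanger. RT1-DOa stood at 2.01, 2.47 and 2.66 CPM, with AKBA 1.33 times sham (1.08 to 1.64). RT1-DOb stood at 2.97, 2.98 and 1.95 CPM, lower in AKBA by a ratio of 0.655 to model (0.538 to 0.795). With sums of transcripts, which place 65, 52 and 56 of its 220, 267 and 176 counts, the log2 ratio of RT1-DOb for AKBA against model was 0.037. Cd74 stood at 477, 521 and 472 CPM, with sham and AKBA alike within counting error (ratio 0.988, interval 0.974 to 1.002). Ciita stood at 15.1, 14.0 and 16.3 CPM, and its model to sham ratio of 0.93 had an interval that holds 1 (0.857 to 1.01). The signs of Cd74, RT1-DMa, RT1-DMb and RT1-DOb for model against sham turned negative with TMM scaling.

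**Figure D3:**
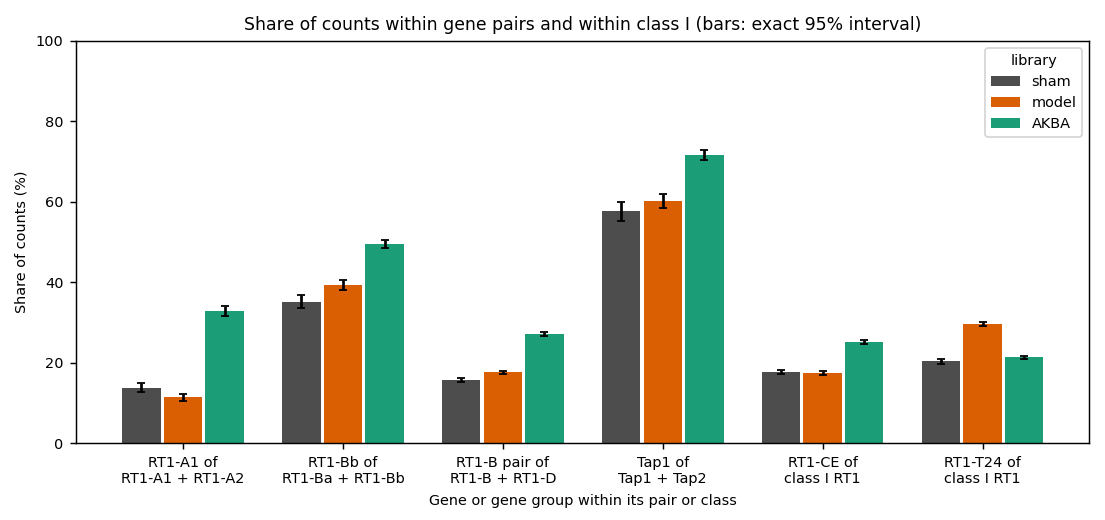
Share of counts (%) that 1 gene or gene group took within its pair or within class I RT1, in each library, with exact 95% binomial intervals as error bars. AKBA stands apart for RT1-A1 (32.9% against 13.8% and 11.5%), the RT1-B pair (27.3%) and Tap1 (71.6%), and model stands apart for the RT1-T24 rows (29.6%).

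Counted by the 2-fold rule, few members were apart. Between model and sham, 2 of 34 kept members were at least 2-fold higher, RT1-T24-4 and RT1-CE10, which is 2 against a background of 4.52% of all kept genes (2.61% with TMM scaling). None was at least 2-fold lower, 0 of 34 (background 1.31%, or 2.03% with TMM scaling; 5.83% in either direction). Between AKBA and model, 1 was higher, RT1-A1 (background 2.69%), and 0 were lower (background 1.37%, or 4.05% in either direction). Between AKBA and sham, 6 were higher: RT1-Bb, Tap1, RT1-A1, RT1-CE7, RT1-CE5 and RT1-CE10 (background 5.83%, or 4.02% with TMM scaling, where RT1-CE10 drops out and 5 are left). Again 0 were lower (background 2.08%, or 3.02% with TMM scaling; 7.91% in either direction). The first 2 counts lie near the background. RT1-CE7 lies within the span of RT1-CE5 in RefSeq, so the 6 members higher in AKBA than in sham may not be separate genes. All 3 comparisons share libraries, so these counts are not independent of each other.

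By the order of the libraries, sham was lowest in 23 of 34 kept members (67.6%), against 58.1% of all kept genes, and highest in 2, RT1-M10-1 and B2m (5.88%, against 21.3%). AKBA was highest in 18 (52.9%, against 36.3%). The order sham, model, AKBA from low to high held for 15 (44.1%, against 28.6%), made up of 7 of 17 class I rows, 3 of 8 class II rows, 4 of 6 loading genes and Nlrc5. Neighbouring libraries in such an order did not always differ beyond counting error, as in RT1-S3 and Tap2.

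Of the 46 members, 42 lie on chromosome 20 in RefSeq (assembly GRCr8, used for names and neighbours only). Along it, kept members run from the RT1-M genes through RT1-N, RT1-S, RT1-T24 and RT1-CE to the RT1-D and RT1-B genes and RT1-DOb, then Tap2, Psmb8, Tap1 and Psmb9, the RT1-DM genes and RT1-DOa, and RT1-A2, RT1-A1 and Tapbp. Tap2, Psmb8, Tap1 and Psmb9, which follow each other, were alike for model against sham, with log2 ratios of 0.52, 0.53, 0.67 and 0.68. For AKBA against model they were 0.0056, -0.18, 0.72 and 0.20, so Tap1 stood off from its neighbours. RT1-Da, RT1-Db1, RT1-Ba, RT1-Bb and RT1-DOb, also in a row, had 0.23, 0.29, 0.33, 0.58 and 0.0063 for model against sham and -0.21, -0.48, 0.28, 0.85 and -0.43 for AKBA against model. RT1-A2 and RT1-A1 had -0.58 and 1.22.

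**Figure D4:**
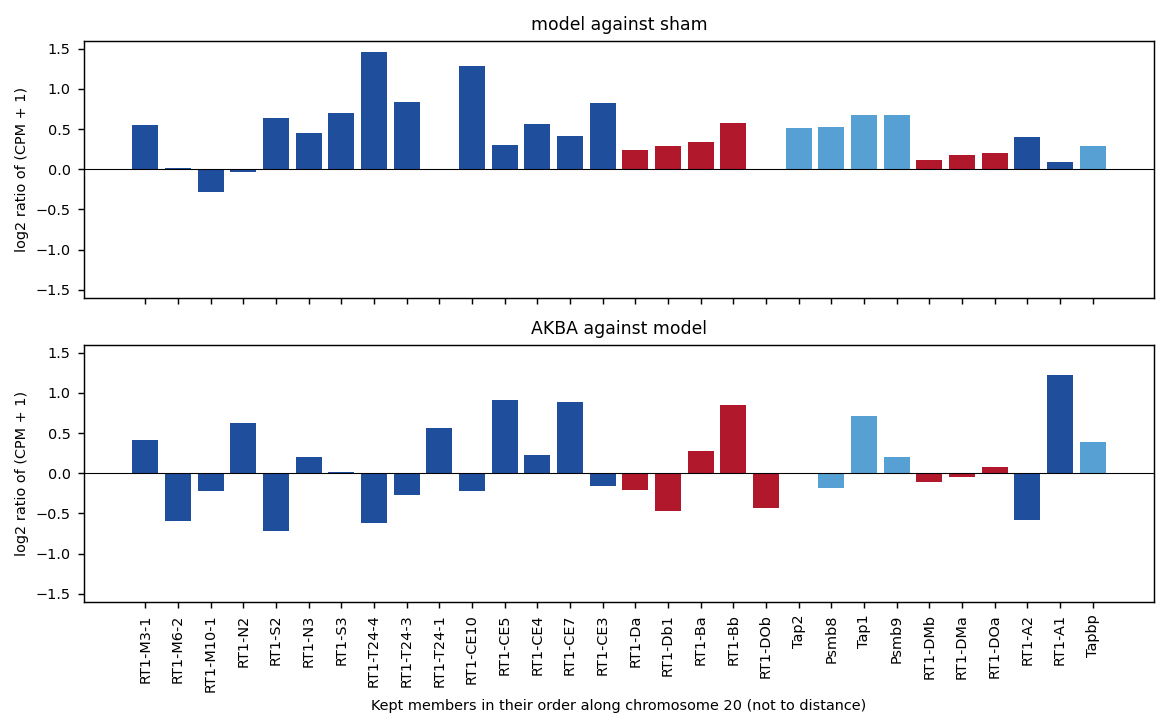
The log2 ratio of (CPM + 1) for the kept members on chromosome 20, in their order along it and not to distance, for model against sham (top) and AKBA against model (bottom), coloured as in the plot of levels. Most bars point up in the top panel, while in the bottom panel neighbours such as RT1-A2 (-0.58) and RT1-A1 (1.22) point opposite ways.

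Transcript counts showed which RefSeq transcript took a gene's reads. For 29 of the 46 members the transcripts placed by accession summed to the gene count in every library, and 10 members had counts on at least 2 placed transcripts. RT1-A1 changed most in makeup. Transcript NM_001008827.1 held 468, 101 and 129 of its counts and transcript XM_006256099.3 held 42, 560 and 1540. The first took 91.8% of the gene in sham (89.0 to 94.0), 15.3% in model (12.6 to 18.2) and 7.73% in AKBA (6.49 to 9.12), so sham stood apart from both injured libraries although the gene totals of sham and model were alike. For RT1-A2, NM_001008829.1 took 95.9%, 95.4% and 88.8%. In RT1-N2, XM_006255938.3 took 68.6%, 68.8% and 87.1%, with AKBA apart. In RT1-CE5, whose placed transcripts hold fewer counts than its gene row, NM_001008843.2 took 62.4%, 50.1% and 65.7% of the placed counts, with model apart. How reads were assigned between transcripts of near-identical genes is not stated, so these shares carry the same uncertainty as the gene rows.

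The transactivator Ciita is made from several promoters that serve different cells, and its transcripts also differed in share. NM_053529.2 took 68.9%, 57.3% and 72.8% of the placed counts, XM_006245738.3 took 12.1%, 23.3% and 10.1%, and NM_001270804.1 had 0, 0 and 71 counts. Model was apart in the first and second of these shares. Cd74 was the contrast, with NM_013069.2 at 74.5%, 75.1% and 75.5%. RT1-S3 lay between, with NM_001008886.2 at 70.2%, 78.5% and 75.4%. RT1-DOa had 42, 0 and 0 counts on XM_017601546.1.

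**Figure D5:**
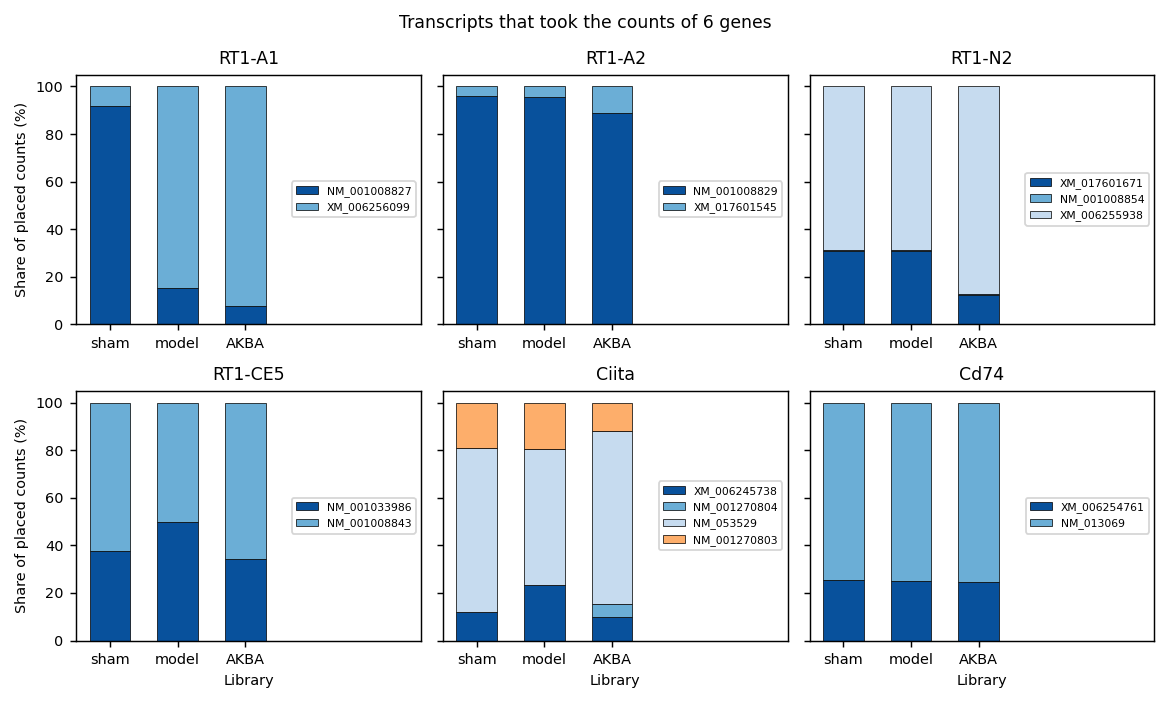
Share of a gene's placed counts (%) taken by each of its RefSeq transcripts in the 3 libraries, for 6 genes; each stacked bar is 1 library. RT1-A1 changes from 91.8% of NM_001008827 in sham to 15.3% in model and 7.73% in AKBA, whereas Cd74 holds 74.5%, 75.1% and 75.5% of NM_013069.

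Other genes of the 2 pathways were read from lists set up by role. Of 9 further class I pathway genes, 0 were 2-fold apart in any comparison. Their median log2 ratio was 0.12 for model against sham and -0.060 for AKBA against model. Of all kept genes, 5.83% (model to sham), 4.05% (AKBA to model) and 7.91% (AKBA to sham) were 2-fold apart in either direction. A count of 0 in a list this short therefore lies near the background. Psmb10, the third interferon-inducible proteasome subunit, stood at 15.8, 25.3 and 31.6 CPM, in the order of Psmb9. Tapbpl, a tapasin relative that edits peptides, stood at 20.3, 31.1 and 27.3 CPM, and the chaperone Pdia3 at 406, 310 and 312 CPM. Of 8 class II pathway genes in the table, 0 were 2-fold apart, 5 were below 0 for model against sham and 7 were above 0 for AKBA against model (median 0.45). Of all kept genes, 71.0% and 42.5% were above 0 in these 2 comparisons. Among them Cd83, which keeps class II at the surface, stood at 17.9, 13.1 and 22.8 CPM, cathepsin S (Ctss), which trims Cd74, at 74.1, 58.1 and 85.6 CPM, and March1, which removes class II from the surface, at 9.93, 6.80 and 9.49 CPM. All 3 were lowest in model, unlike RT1-Da, RT1-Db1 and Cd74.

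Of 7 RFX, NF-Y and Creb1 genes, which encode factors of the X and Y boxes, 0 were 2-fold apart. For model against sham 6 of the 7 were above 0 (71.0% of all kept genes), and for AKBA against model 0 of the 7 were (42.5% of all kept genes). Rfx5 stood at 28.9, 39.99 and 36.7 CPM and Nfyb at 25.8, 38.1 and 36.9 CPM. In the interferon gamma axis, 0 of 8 kept genes were 2-fold apart and all 8 were above 0 for AKBA against model (median 0.17), where 42.5% of all kept genes were above 0 and 4.05% were 2-fold apart. Irf1, which acts on class I promoters, stood at 34.0, 51.5 and 59.3 CPM, and Irf8 at 23.2, 20.8 and 29.3 CPM. Ifng itself had 0, 0 and 10 counts, below the filter. MHC-like genes outside RT1 had 0 of 5 kept genes 2-fold apart, with Procr, the protein C receptor, at 25.5, 44.2 and 28.2 CPM and the neonatal Fc receptor Fcgrt at 87.4, 127 and 116 CPM. Costimulation genes had 0 of 5 apart: Cd274 stood at 26.6, 22.4 and 22.7 CPM and Pdcd1lg2 at 0.863, 1.92 and 0.611 CPM. The background for all these lists was 5.83% (model to sham), 4.05% (AKBA to model) and 7.91% (AKBA to sham) in either direction. Counts of 0 in lists this short lie near it.

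Markers of cells that carry MHC molecules moved unevenly, and their part in the values above was not tested. Macrophage markers (9 of 9 kept) summed to 1120, 1251 and 1002 CPM, an order shared by RT1-Da, RT1-Db1 and Cd74 to the extent that model was highest. Model was highest in 14 of the 34 kept members (41.2%) and in 42.4% of all kept genes. Cd68 was 2-fold lower in model than in sham and 2-fold higher in AKBA than in model, at 43.7, 20.9 and 60.1 CPM, while Cd163 was 2-fold lower in AKBA than in model, at 165, 213 and 101 CPM. Dendritic cell markers (6 of 8 kept) summed to 36.6, 45.9 and 56.3 CPM. The AKBA value owed its place to Itgax, the integrin CD11c, at 6.63, 4.39 and 20.8 CPM. The other 5 kept markers were below 0 for AKBA against model, where 42.5% of all kept genes were above 0. Among them Flt3, Xcr1 and Clec9a had log2 ratios of -0.072, -0.026 and -0.23. The 2 markers below the filter were highest in AKBA, Ccr7 with 7, 18 and 83 counts and Cd209a with 0, 0 and 6.

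B cell markers were at or near 0, with 0 of 5 kept and summed levels of 0.337, 1.64 and 1.17 CPM. T and natural killer cell markers (6 of 8 kept) summed to 153, 124 and 141 CPM, of which Cd4, made also by rat macrophages, held 146, 115 and 123 CPM. Cd8a stood at 2.24, 1.85 and 8.23 CPM and Cd8b at 0.9301, 0.302 and 2.38 CPM. Both were at least 2-fold higher in AKBA than in model (background 2.69%). The CD3 chain genes Cd3d (0.566, 0.749 and 0.799 CPM), Cd3e (0.917, 1.88 and 1.499 CPM) and Cd3g (0.755, 1.17 and 1.88 CPM) stayed under 2 CPM in each library. Their log2 ratios for AKBA against model were 0.041, -0.20 and 0.40. Endothelial markers (6 of 6 kept) summed to 405, 745 and 643 CPM. This order of the sums is that of RT1-T24-4, RT1-T24-3 and RT1-CE10. It is also that of RT1-CE3, RT1-Da, RT1-DMa, RT1-DMb, Psmb8 and the Schwann cell sum, so it does not single out the endothelium. Within the endothelial list Cldn5 and Tie1 were highest in AKBA instead. Cldn5 was the 1 endothelial marker at least 2-fold higher in model than in sham, at 23.8, 75.6 and 83.7 CPM. In the Schwann cell list 4 of 7 genes were at least 2-fold higher in model than in sham (background 4.52%), with Prx at 889.5, 2333 and 2207 CPM. Mbp was highest in sham, at 3012, 1553 and 1335 CPM, and was at least 2-fold lower in AKBA than in sham.

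Tissue around the nerve also differed between libraries. Skeletal muscle markers (8 of 8 kept) summed to 378, 777 and 5732 CPM, adipocyte markers (6 of 6) to 10204, 5381 and 2513 CPM, and skin and hair markers (4 of 6) to 8.01, 8.02 and 95.98 CPM. All 8 muscle markers were at least 2-fold higher in AKBA than in model (background 2.69%), Myh2 by a log2 ratio of 4.84 and Myh1 by 4.35. The hair gene Tchh stood at 4.22, 2.39 and 69.0 CPM, and the adipocyte gene Lpl at 3081, 1875 and 758 CPM. The order of the muscle markers goes the way of Tap1, RT1-Bb and RT1-CE5, and the adipocyte order goes the way of B2m and RT1-M10-1. The muscle order held for 15 of 34 kept members (44.1%) and for 28.6% of all kept genes. The part of these tissues in the values of the members was not tested.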

How the data were processed

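Total RNA of sciatic nerve was depleted of ribosomal RNA with biotinylated probes, fragmented and copied from random primers, per the labels' protocols. Tools in the submitters' processing notes are HISAT2, StringTie, bcl2fastq 2.0, limma and DESeq2, each with no role, and the build named there is the mouse build mm10, although the rows carry rat gene names. How reads were counted, and on which strand, is not stated. The authors deposited counts, not normalized, for each gene and each transcript. The model column carried 2 extra text characters after each count (removed here), and held counts otherwise. Columns were assigned from the key in the series' design text. CPM, ratios and exact Clopper-Pearson limits were computed with Python 3.11.15 and scipy 1.17.1, and scaling factors with edgeR 4.0.16. Ratios on the log2 scale used a pseudocount of 1 CPM. Transcripts were placed through RefSeq accessions without their version. The 2-fold call and the counting interval were tested on simulated counts that held counting error only. Spread between animals, reads shared by near-identical genes, transcripts and promoters were not simulated. The lncRNA tables were not used here. Alternatives were TMM and upper quartile scaling, totals without ribosomal RNA rows, sums of transcripts, a pseudocount of 0.1 CPM, no filter and a filter of 5 CPM. Any kept member could be named; from the other lists, members past 2-fold and the 2 with the largest ratios could be named, and Cd4, the Cd3 genes, Flt3, Xcr1, Clec9a, Prx and other list genes outside that rule were named after their values were seen. Members and lists were chosen with earlier results of these data known. Promoter motifs and printed sequences were chosen after the values were seen.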

Additional observations from a re-analysis of the deposited data

How the results depend on the processing

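Each group has 1 library, so no library could be left out. No paired analysis was possible because each group has 1 sample. The log2 ratio of the class I sum for model against sham was 0.67, and became 0.45 with TMM scaling, 0.46 with upper quartile scaling and 0.55 with totals that leave out ribosomal RNA rows. For AKBA against sham it was 0.69, and became 0.52, 0.52 and 0.62 in the same order and 0.73 with sums of transcripts. For AKBA against model it was 0.019, and became 0.071, 0.056, 0.071 and 0.066. The log2 ratio of the class II sum was 0.27 for model against sham, and became 0.052, 0.064 and 0.15 in the first 3 settings. For AKBA against sham it was 0.19, and became 0.025, 0.023 and 0.13. For AKBA against model it was -0.078, and became -0.027, -0.042 and -0.027. None of these 6 ratios changed sign in the settings named.

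The count of members at least 2-fold apart was 2 for model against sham, and 1 with sums of transcripts, which place no counts in RT1-CE10. For AKBA against model it was 1, and 2 with sums of transcripts (RT1-CE5 added), with a pseudocount of 0.1 CPM (RT1-S2 added) and with no filter (RT1-M2 added). For AKBA against sham it was 6, and lay between 5 and 7. Values of single kept members were recomputed under TMM scaling, upper quartile scaling, totals without ribosomal RNA rows, sums of transcripts or the smaller pseudocount. Of these 492 log2 ratios, 314 lay within the counting interval of the member's CPM ratio in the main setting, and 0 of those past 2-fold changed sign. That interval is for the ratio without a pseudocount, so a member at a low level, such as RT1-S2, can fall outside it through the pseudocount alone. With TMM scaling 6 members changed sign between model and sham, 1 between AKBA and model, and 4 between AKBA and sham, all of them closer to 0 than 2-fold. With sums of transcripts RT1-DOb and RT1-M6-2 changed sign between AKBA and model (0.037 and 0.015), RT1-DOb between model and sham (-0.25), and RT1-M6-2 between AKBA and sham (0.021), where few of their counts are placed. Counting error is small at this depth for members above 10 CPM, and the spread between animals is not measured here.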
